A study of Mus musculus with 24 samples.

Results

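Cxcl9 and Cxcl10 are chemokines that interferon gamma induces, and they were followed here in mouse lung together with Gzmb, which encodes granzyme B of cytotoxic cells. Each gene was taken by its symbol in the platform annotation, with the brightest probe set that carries that symbol and no other. Each of the 3 genes, of 12393 genes measured, had 1 such probe set: 1418652_at for Cxcl9 (Entrez Gene 17329), 1418930_at for Cxcl10 (15945) and 1419060_at for Gzmb (14939). No further probe set was therefore at hand to check a level.

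Lung RNA from 24 female BALB/C mice, an inbred strain, aged 8 to 10 weeks, was measured on 1 Affymetrix array per mouse. The mice were split at random into 8 groups of 3 separate mice, and every dose went into the nose on day 0 and again on day 13, with tissue taken 18 hours after the second dose. The groups received saline, 20 ug ovalbumin (OVA, an egg white protein used as a model allergen), 150 ug of diesel exhaust particles (DEP) of the kind labelled N-DEP, A-DEP or C-DEP, or 1 of these particles with OVA. They are written saline, OVA, NDEP, ADEP, CDEP, NDEP + OVA, ADEP + OVA and CDEP + OVA, and the labels mark the 4 OVA groups as sensitized. The series title calls the particles chemically distinct, and no other agent is named for any group. Levels are log2 of the deposited intensities. Array medians lay between 72.2 and 75.5 intensity units, the 25th percentile of an array lay between 4.45 and 4.64 log2, and a level near or below that percentile is not shown to lie above background. Lung markers were high in all groups: Sftpc, a surfactant protein of alveolar type 2 cells, had group means of 13.62 to 13.79, and Scgb1a1 of club cells had 13.88 to 14.08.

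As background, interferon gamma is made mainly by natural killer (NK) cells and T cells and acts through the receptor chains IFNGR1 and IFNGR2 and the kinases JAK1 and JAK2. Genes that answer to interferon gamma often carry the GAS motif, and genes that answer to type I interferon the ISRE motif. CXCL9, CXCL10 and CXCL11 are secreted by macrophages, epithelium and endothelium and share the receptor CXCR3, carried by activated T cells and NK cells. CXCL9 depends largely on interferon gamma, whereas CXCL10 also answers to type I interferon and NF-kB. Granzyme B is a serine protease that cytotoxic T cells and NK cells release with perforin into target cells.

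The gene starts are shown because Cxcl9 and Cxcl10 followed each other across the arrays and Gzmb, at another locus, spanned a narrower range. Among protein-coding genes and transcribed pseudogenes in the RefSeq order of the mouse reference, Cxcl9, Art3, Cxcl10 and Cxcl11 are neighbours, and Gzmb is on another chromosome. Each sequence is the RefSeq reference from 250 bases before to 50 bases after the gene's start, 5′ to 3′ along the gene, all on the minus strand of GRCm38.p6. The windows are chr5:92328030-92328329 for Cxcl9, chr5:92348840-92349139 for Cxcl10 and chr14:56262285-56262584 for Gzmb. Capitals mark every match to the motifs searched on both strands: ISRE (GAAA, any 2 bases, GAAA), GAS (TTCNNNGAA), AP-1 (TGANTCA), a short NF-kB form (GGGNNTTCC) and the degenerate NF-kB consensus. These motif forms were chosen after the sequences had been read.
Cxcl9: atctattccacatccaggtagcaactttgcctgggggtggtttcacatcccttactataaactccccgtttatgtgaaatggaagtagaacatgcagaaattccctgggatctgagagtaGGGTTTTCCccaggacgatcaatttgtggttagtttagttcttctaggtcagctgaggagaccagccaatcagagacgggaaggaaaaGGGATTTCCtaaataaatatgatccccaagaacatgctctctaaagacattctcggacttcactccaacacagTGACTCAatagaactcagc
Cxcl10: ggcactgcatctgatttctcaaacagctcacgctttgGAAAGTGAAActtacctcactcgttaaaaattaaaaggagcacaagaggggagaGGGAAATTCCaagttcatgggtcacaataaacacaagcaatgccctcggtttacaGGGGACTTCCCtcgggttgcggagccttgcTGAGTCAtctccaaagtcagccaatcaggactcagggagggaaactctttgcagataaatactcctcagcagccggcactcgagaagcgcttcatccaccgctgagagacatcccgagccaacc
Gzmb: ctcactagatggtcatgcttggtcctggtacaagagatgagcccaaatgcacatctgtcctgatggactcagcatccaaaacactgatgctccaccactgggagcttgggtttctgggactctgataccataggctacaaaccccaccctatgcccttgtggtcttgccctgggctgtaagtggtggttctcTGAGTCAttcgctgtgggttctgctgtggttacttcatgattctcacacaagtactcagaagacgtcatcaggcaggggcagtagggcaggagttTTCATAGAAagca

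The Cxcl9 window held the short NF-kB form at 130 to 122 and at 42 to 34 bases before the start, and an AP-1 match at 32 to 38 bases after it. The Cxcl10 window held an ISRE match, GAAAGTGAAA, at 213 to 204 bases before the start, an AP-1 match at 74 to 68 and the NF-kB consensus at 159 to 150, 104 to 95 and 103 to 94. Its short-form match at 103 to 95 lies within both of the latter. The Gzmb window held AP-1 at 58 to 52 bases before the start and the GAS form at 38 to 46 bases after it. Of 32851 promoters of this length, 3.4% held the ISRE form, 8.3% the GAS form, 7.8% AP-1, 5.8% the short NF-kB form and 8.5% the NF-kB consensus. These matches describe letters in the reference genome and not bound sites in these mice. The Cxcl9 window matched neither the ISRE nor the GAS form searched. That does not show that it lacks an element that answers to interferon gamma, nor does the Gzmb match show that it has one.

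Cxcl9 was low in all groups that did not receive both a particle and OVA, and it was highest after CDEP + OVA. Its levels were 4.65, 4.87 and 4.67 in saline lungs, which placed it at the 26.1 to 28.5 percentile of each array. They were 4.94, 4.65 and 5.05 after OVA, 5.20, 5.02 and 4.77 after NDEP, 4.79, 4.69 and 4.65 after ADEP, and 4.60, 4.64 and 4.92 after CDEP. These 5 groups overlapped one another. The levels were 5.99, 5.59 and 6.70 after NDEP + OVA and 5.19, 5.98 and 5.46 after ADEP + OVA, so both of these groups lay above every OVA and saline array. After CDEP + OVA they were 8.15, 8.59 and 6.48, at the 54.6 to 86.4 percentile of each array. The third CDEP + OVA mouse lay below the highest NDEP + OVA mouse. In order of group means, Cxcl9 ran from CDEP + OVA (7.74 ± 1.11, SD, n = 3 for all groups) through NDEP + OVA (6.09 ± 0.57), ADEP + OVA (5.54 ± 0.40), NDEP (5.0 ± 0.22), OVA (4.88 ± 0.21), saline (4.73 ± 0.12) and CDEP (4.72 ± 0.17) to ADEP (4.71 ± 0.08). Every pair of neighbours in this order overlapped.

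Cxcl10 was also highest after CDEP + OVA, and that group did not overlap any other. How many genes had such a gap from all other groups was not counted. Against the OVA arrays only, 12.8% of all genes had every CDEP + OVA array higher. The saline levels of Cxcl10, 5.98, 5.96 and 6.33, lay at the 45.7 to 51.9 percentile of each array, and the OVA levels were 6.59, 6.08 and 5.91. The particles alone gave 6.58, 6.50 and 6.74 for NDEP, 6.45, 6.32 and 6.57 for ADEP, and 6.77, 6.33 and 6.45 for CDEP. All NDEP arrays were above all saline arrays, as were all CDEP arrays by less than the last digit shown, while ADEP overlapped saline. NDEP + OVA gave 7.12, 6.46 and 7.31 and ADEP + OVA gave 7.22, 7.20 and 6.57. CDEP + OVA gave 8.68, 9.10 and 7.34, the last of these just above the highest array of any other group. The order of means was CDEP + OVA (8.37 ± 0.92), ADEP + OVA (6.99 ± 0.37), NDEP + OVA (6.96 ± 0.44), NDEP (6.61 ± 0.12), CDEP (6.51 ± 0.23), ADEP (6.45 ± 0.13), OVA (6.19 ± 0.35) and saline (6.09 ± 0.21). Apart from the step below CDEP + OVA, neighbours in this order overlapped.

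Gzmb spanned a narrower range of levels, with 1 group set apart. Its levels were 4.90, 5.60 and 5.57 in saline lungs, 5.37, 5.59 and 5.56 after OVA, 5.35, 5.61 and 5.41 after NDEP, 5.55, 5.43 and 5.52 after ADEP, and 5.70, 5.53 and 5.74 after CDEP. The first saline array was the lowest of all 24. NDEP + OVA gave 5.43, 5.66 and 5.61, ADEP + OVA gave 5.52, 5.59 and 5.84, and CDEP + OVA gave 6.10, 6.85 and 6.04. All 3 CDEP + OVA arrays were above all 21 other arrays, with the second mouse highest by a wide margin. The share of all genes with that order was not counted. Against the OVA arrays only, 12.8% of all genes had every CDEP + OVA array higher. CDEP + OVA had the highest mean (6.33 ± 0.45), followed by CDEP (5.66 ± 0.11), ADEP + OVA (5.65 ± 0.17), NDEP + OVA (5.57 ± 0.12), OVA (5.51 ± 0.12), ADEP (5.50 ± 0.06), NDEP (5.45 ± 0.14) and saline (5.36 ± 0.40). Below the top group every pair of neighbours overlapped.

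**Figure D1:**
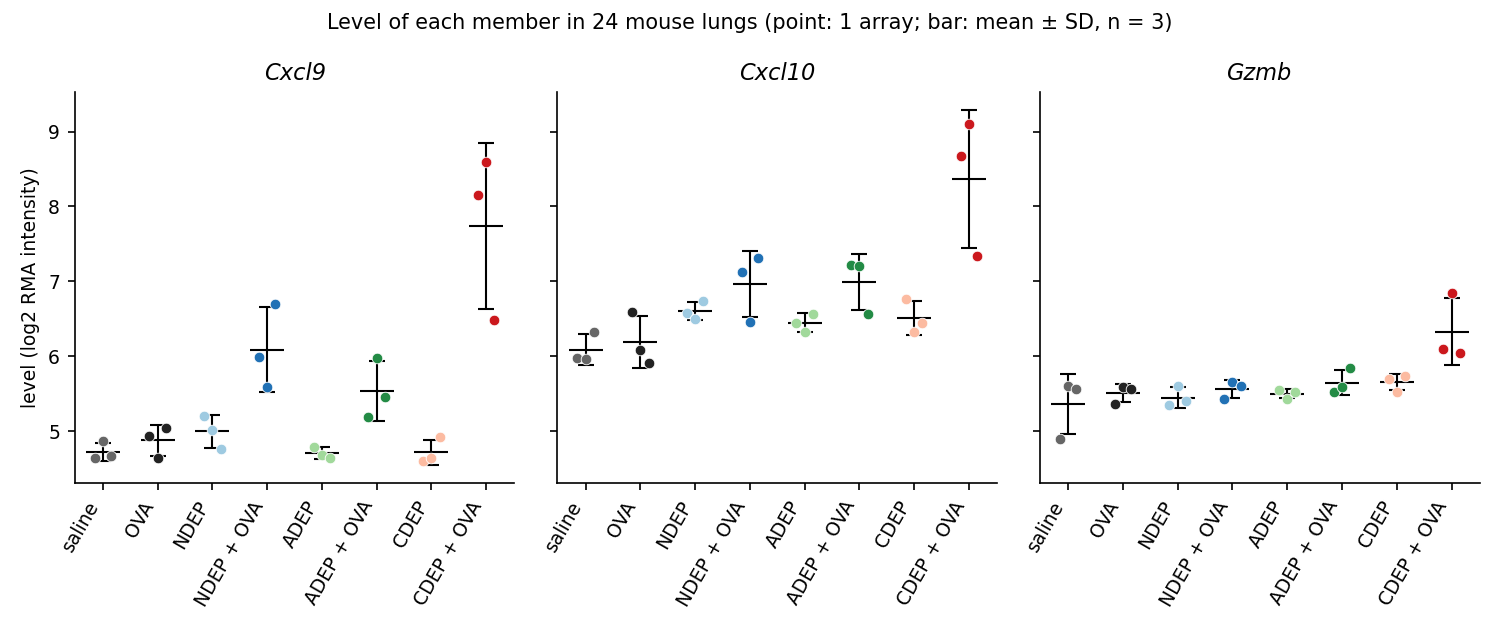
Level of Cxcl9, Cxcl10 and Gzmb on each of 24 arrays (y axis, log2 RMA intensity) by treatment group (x axis), where a point is 1 array and the long bar with whiskers is the mean ± SD of 3 mice. The CDEP + OVA arrays are highest for all 3 genes, at 6.48 to 8.59 for Cxcl9, 7.34 to 9.10 for Cxcl10 and 6.04 to 6.85 for Gzmb, and only for Cxcl9 does another group, NDEP + OVA, reach into their range.

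The tests ask what each particle does alone, what it adds to OVA, what OVA adds to each particle, and whether the joint effect exceeds the sum of both. They come from 1 limma model of all 24 arrays, with p-values adjusted by Benjamini-Hochberg over 12393 genes in each comparison and a threshold of 0.05. Differences are on the log2 scale and followed by their SE. In whole lung, more cells that express a gene and more RNA per cell cannot be told apart. The comparisons that follow share arrays: the CDEP + OVA arrays enter 5 of them, and the OVA arrays serve as control for all 3 particles.

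Neither OVA alone nor any particle alone changed these genes past the threshold. Against saline, Cxcl9 differed by 0.15 ± 0.33 for OVA, 0.27 ± 0.33 for NDEP, -0.02 ± 0.33 for ADEP and -0.01 ± 0.33 for CDEP. Cxcl10 differed by 0.11 ± 0.29 for OVA (adjusted p = 0.975), 0.52 ± 0.29 for NDEP (0.397), 0.36 ± 0.29 for ADEP (0.605) and 0.43 ± 0.29 for CDEP (0.443). The 95% interval of the NDEP difference in Cxcl10 ran from -0.07 to 1.11, and 10.8% of all genes likewise had every NDEP array, and 10.9% every CDEP array, above every saline array. Gzmb differed by 0.15 ± 0.17 for OVA, 0.10 ± 0.17 for NDEP, 0.14 ± 0.17 for ADEP and 0.30 ± 0.17 for CDEP (adjusted p = 0.345). Of all genes, 2.25% were called higher for NDEP, 1.16% for ADEP and 2.28% for CDEP. For OVA alone limma called 0 of 12393 genes higher, and 818 genes had an unadjusted p under 0.05.

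When CDEP was added to OVA, all 3 genes rose. Cxcl9 was higher than in OVA lungs by 2.86 ± 0.33, a 7.24-fold difference (95% interval 2.18 to 3.53 log2, adjusted p = 6.56e-06). Cxcl10 was higher by 2.18 ± 0.29, or 4.54-fold (1.59 to 2.78, adjusted p = 3.93e-05). Gzmb was higher by 0.82 ± 0.17, or 1.77-fold (0.47 to 1.18, adjusted p = 0.00488). In this comparison 3.62% of all genes were called higher, and 12.8% had all CDEP + OVA arrays above all OVA arrays. The Cxcl9 fold rests on OVA levels close to the 25th percentile of the array, where background is not known. Gzmb rested on the second CDEP + OVA mouse: without it the difference was 0.56 (adjusted p = 0.0624), while with any array of either group left out Cxcl9 stayed between 2.43 and 3.49 and Cxcl10 between 1.82 and 2.70, both past the threshold.

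The same 3 genes rose when OVA was added to CDEP. Against CDEP alone, CDEP + OVA lungs were higher by 3.02 ± 0.33 for Cxcl9 (8.11-fold, adjusted p = 3.48e-06), 1.86 ± 0.29 for Cxcl10 (3.63-fold, 4.28e-04) and 0.68 ± 0.17 for Gzmb (1.60-fold, 0.0320). Of all genes, 1.92% were called higher here, and 13.5% had all CDEP + OVA arrays above all CDEP arrays, as the 3 genes did. The Gzmb call was lost without the second CDEP + OVA mouse (0.41, adjusted p = 0.156) and without the first, the second or the third CDEP mouse (0.70, 0.61 and 0.72, adjusted p = 0.0713, 0.146 and 0.0578). Added to NDEP, OVA gave differences of 1.10 ± 0.33 for Cxcl9 (adjusted p = 0.200), 0.35 ± 0.29 for Cxcl10 and 0.11 ± 0.17 for Gzmb. Added to ADEP it gave 0.83 ± 0.33 (adjusted p = 0.396), 0.55 ± 0.29 and 0.15 ± 0.17. None of these 6 passed, and 0.113% of all genes were called higher for NDEP and 0.0484% for ADEP.

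The interaction tests whether the OVA effect in particle-exposed lungs differs from the OVA effect in saline-dosed lungs. For CDEP it was 2.87 ± 0.46 in Cxcl9 (95% interval 1.91 to 3.82, adjusted p = 0.00325), and 0.258% of all genes were called higher by this test. The Cxcl9 interaction passed with any of the 12 arrays involved left out, at 2.44 to 3.50. In Cxcl10 it was 1.76 ± 0.41 (0.92 to 2.60, adjusted p = 0.0582), just short of the threshold, and it passed without the first OVA mouse (1.95, adjusted p = 0.0360) or without the third CDEP + OVA mouse (2.27, adjusted p = 1.28e-04). In Gzmb it was 0.52 ± 0.24 (0.02 to 1.03, adjusted p = 0.370). For NDEP the interaction was 0.95 ± 0.46 in Cxcl9 (adjusted p = 0.808), 0.25 ± 0.41 in Cxcl10 and -0.04 ± 0.24 in Gzmb. For ADEP it was 0.68 ± 0.46 (adjusted p = 0.629), 0.44 ± 0.41 and 0.00 ± 0.24. These tests called 0.0242% of all genes higher for NDEP and 0.00807% for ADEP.

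NDEP and ADEP on top of OVA gave smaller differences, none past the threshold. For Cxcl9 the difference from OVA was 1.21 ± 0.33 with NDEP (2.32-fold, 0.54 to 1.89, adjusted p = 0.0523) and 0.66 ± 0.33 with ADEP (-0.01 to 1.34, 0.449). In both cases all 3 arrays lay above all OVA arrays, as they did for 9.21% of genes with NDEP and 11.1% with ADEP. Without the second NDEP + OVA mouse, the lowest of its group, the Cxcl9 difference was 1.46 and passed (adjusted p = 0.0208). For Cxcl10 the differences were 0.77 ± 0.29 with NDEP (adjusted p = 0.217) and 0.80 ± 0.29 with ADEP (0.237). For Gzmb they were 0.06 ± 0.17 and 0.14 ± 0.17. Of all genes, 1.74% were called higher for NDEP and 0.629% for ADEP.

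**Figure D2:**
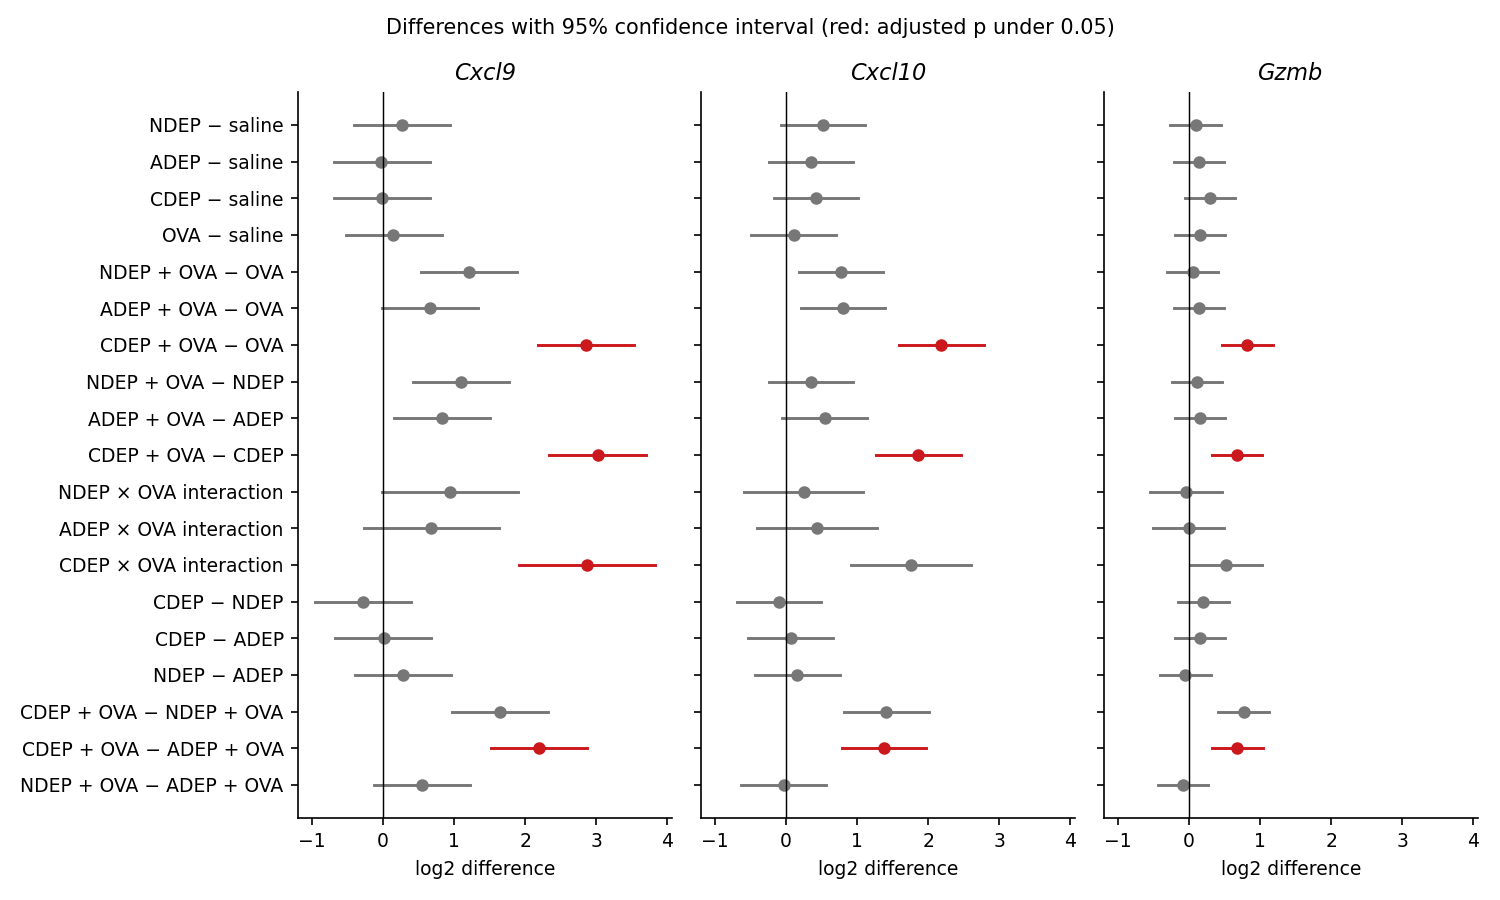
Difference of each of 19 comparisons (rows) for Cxcl9, Cxcl10 and Gzmb (x axis, log2 units), where a point is the estimate, a line its 95% confidence interval and red an adjusted p under 0.05. For Cxcl9, the difference of CDEP + OVA is 3.02 from CDEP alone and 2.86 from OVA alone, and the CDEP interaction is 2.87, while every interval of a particle alone against saline includes 0.

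With OVA given to all, CDEP lungs had more of all 3 transcripts than ADEP lungs. The CDEP + OVA lungs exceeded the ADEP + OVA lungs by 2.19 ± 0.33 in Cxcl9 (4.57-fold, adjusted p = 0.00152), 1.38 ± 0.29 in Cxcl10 (2.60-fold, 0.0173) and 0.68 ± 0.17 in Gzmb (1.60-fold, 0.0445). Here 0.815% of all genes were called higher. With only the 2 groups in the fit, the differences were the same and none passed (adjusted p = 0.0543, 0.116 and 0.149). The Cxcl10 call was also lost without the second CDEP + OVA mouse (1.02, adjusted p = 0.134) or the third ADEP + OVA mouse (1.17, 0.0765), and the Gzmb call was lost without any of the 3 ADEP + OVA mice (0.62, 0.65 and 0.78) or the second CDEP + OVA mouse (0.42).

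Against NDEP + OVA, the CDEP + OVA lungs differed by 1.65 ± 0.33 in Cxcl9 (0.97 to 2.32, adjusted p = 0.0804), 1.41 ± 0.29 in Cxcl10 (0.82 to 2.01, 0.0921) and 0.77 ± 0.17 in Gzmb (0.41 to 1.12, 0.155). None passed the threshold, and only 0.00807% of all genes, the guanylate-binding protein gene Gbp6 alone, were called higher in this comparison. All 3 passed without the third CDEP + OVA mouse (2.28, 1.93 and 0.91, adjusted p = 5.53e-06, 2.69e-05 and 0.0250). NDEP + OVA and ADEP + OVA differed by 0.55 ± 0.33 in Cxcl9 (-0.13 to 1.22), -0.03 ± 0.29 in Cxcl10 (-0.63 to 0.56) and -0.08 ± 0.17 in Gzmb (-0.44 to 0.27), none past the threshold, where 0.0161% of all genes were called higher. Without OVA, no pair of particles differed past the threshold in any of the 3 genes, with differences between -0.28 and 0.28. There limma called 0 genes higher for CDEP against NDEP or ADEP (734 and 828 had an unadjusted p under 0.05) and 0.00807% for NDEP against ADEP.

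Cxcl9 and Cxcl10 followed each other across the arrays, and Gzmb followed them mainly through the CDEP + OVA arrays. Pearson's r of Cxcl9 with Cxcl10 was 0.923 over 24 arrays and 0.963 over the 8 group means. These points share groups, and 2 CDEP + OVA arrays stand far above the rest. Over the 21 arrays outside CDEP + OVA r was 0.68, and without the 2 arrays farthest from the median of Cxcl9 it was 0.737. Gzmb had r = 0.773 with Cxcl9 and 0.765 with Cxcl10 over 24 arrays, but 0.215 and 0.191 over the 21 arrays outside CDEP + OVA. Within CDEP + OVA the first mouse was well above the third in both chemokines (8.15 against 6.48 in Cxcl9) but not in Gzmb (6.10 against 6.04).

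**Figure D3:**
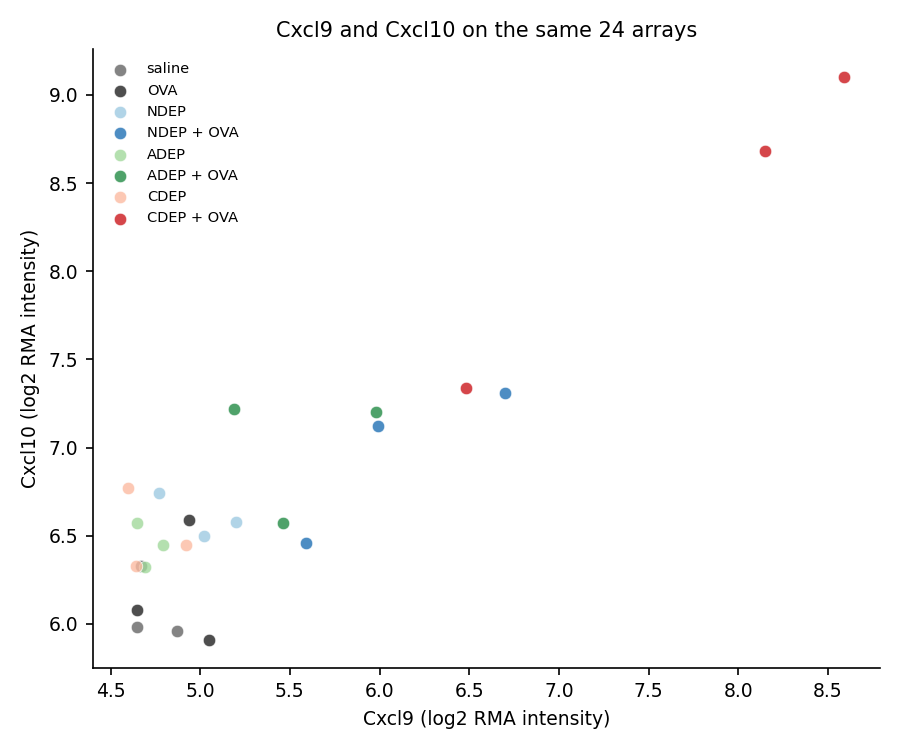
Cxcl9 (x axis) against Cxcl10 (y axis), both in log2 RMA intensity, with 1 point per array and colours for the 8 groups. The first and second CDEP + OVA mice lie apart at the upper right, at 8.15 and 8.68 and at 8.59 and 9.10, and the third, at 6.48 and 7.34, lies beside an NDEP + OVA mouse.

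The genes most like the chemokines in pattern were mostly interferon-inducible GTPases. With Cxcl9, the highest r over 24 arrays were those of Gbp6 (0.958), Igtp (0.949), Cxcl10 (0.923), Gbp2b (0.919) and Arg1 (0.914). With Cxcl10 they were Gbp2b (0.928), Gbp6 (0.927), Cxcl9 (0.923), Igtp (0.918) and Iigp1 (0.905). Gbp6 and Gbp2b encode guanylate-binding proteins and Igtp and Iigp1 immunity-related GTPases, both families that act against intracellular microbes. Gbp6 was 8.08, 8.03 and 7.04 after CDEP + OVA and 5.67, 5.50 and 5.40 after OVA, again with the third CDEP + OVA mouse lowest. Arg1, the arginase of alternatively activated macrophages, was 7.06, 8.53 and 6.71 after CDEP + OVA and 4.11, 4.13 and 4.08 after OVA. Arg1 also passed the threshold with NDEP + OVA (1.75 ± 0.33, adjusted p = 0.00374) and ADEP + OVA (1.92 ± 0.33, 0.00427) against OVA. The OVA level of Arg1 lies below the 25th percentile of the array and is not shown to lie above background, so the size of its differences is uncertain.

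Gzmb was most like Cxcl11 (0.867), Cct8 (0.825), Cct5 (0.802), Ogfr (0.788) and Cxcl9 (0.773). Cct8 and Cct5 encode subunits of the cytosolic chaperonin that folds actin and tubulin, and Ogfr an opioid growth factor receptor. After CDEP + OVA, Cct8 was 0.51 ± 0.12 (adjusted p = 0.0109) and Cct5 0.42 ± 0.10 (0.0156) above OVA, and Ogfr differed by 0.19 ± 0.08 (0.214). None of the other cytotoxic granule genes was among these 5.

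Of the genes of the CXCR3 system, the ligands rose after CDEP + OVA and the receptor's transcript did not pass the test. Cxcl11 was 5.45, 6.62 and 5.15 after CDEP + OVA and 4.52, 4.67 and 4.63 after OVA, a difference of 1.13 ± 0.22 (2.19-fold, adjusted p = 0.00295). The second mouse was highest, as for Gzmb. The other probe set of Cxcl11, with group means of 3.07 to 3.29, lay below the 25th percentile throughout and gives no check, and RefSeq lists Cxcl11 of the reference strain as a transcribed pseudogene. Cxcr3 had group means of 5.38 to 5.53 throughout and differed by 0.04 ± 0.12 (adjusted p = 0.889).

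The transcript of interferon gamma itself was dim in every group and is not shown to lie above background in any. Ifng had group means between 3.49 and 3.67, below the 25th percentile of every array, and differed by 0.03 ± 0.11 between CDEP + OVA and OVA (adjusted p = 0.918). None of 12 measured genes for interferon gamma and its inducers passed in that comparison, with a median difference of -0.05 beside -0.01 over all genes. They include Il18 (-0.17 ± 0.13), Ebi3 (-0.16 ± 0.13), Il12a (-0.12 ± 0.14) and Tbx21, the factor T-bet of interferon gamma producing cells (0.25 ± 0.16). Where 3.62% of all genes were called higher, 6 of 9 receptor and signalling genes rose and none fell, with a median of 0.52. Among them were the kinase Jak2 (0.46 ± 0.11, adjusted p = 0.0106), the receptor chain Ifngr2 (0.54 ± 0.13, 0.0131), the factor Irf1 (0.60 ± 0.14, 0.00922) and the feedback inhibitor Socs1 (0.77 ± 0.15, 0.00202). Between 1 and 5 of the 9 rose when an array was left out, the fewest without the second CDEP + OVA mouse, with 2 without the third OVA mouse and 3 without the second OVA or the first CDEP + OVA mouse. With the heart muscle level as a covariate 1 of the 9 rose. How many of all genes were called in these further fits was not counted.

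Many interferon gamma target genes rose after CDEP + OVA. Of 21 measured, 17 rose and none fell against OVA, with a median of 0.88 beside -0.01 over all genes, while 3.62% of all genes were called higher. The 4 with the smallest p were Gbp6 (2.19 ± 0.21, adjusted p = 4.49e-07), Iigp1 (2.54 ± 0.30, 9.11e-06), Igtp (1.83 ± 0.22, 1.33e-05) and Cd274, which encodes the T cell inhibitory ligand PD-L1 (1.53 ± 0.23, 1.60e-04). The others that rose serve antigen processing (Tap1, Tap2, Psmb8, Psmb9 and Psmb10), defence of vacuoles (Gbp2, Gbp3, Gbp7, Irgm1 and Irgm2), MHC class II transcription (Ciita), tryptophan breakdown (Ido1) and IgG binding (Fcgr1). The 4 that did not pass were Nos2 (-0.20 ± 0.12), Serping1 (-0.02 ± 0.17), Cxcl16 (0.29 ± 0.14) and Ubd (0.37 ± 0.14). Between 13 and 18 of 21 rose when an array of either group was left out, and 9 of 21 with the level of heart muscle markers, which were lower after CDEP + OVA, as a covariate. The shares of all genes called in those fits were not counted. Against CDEP alone 13 of 21 rose (median 0.89), where 1.92% of all genes were called higher. The CDEP interaction test was passed by 8 of 21 (median 0.92), where 0.258% of all genes were called higher.

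With NDEP + OVA against OVA only Iigp1 of the 21 targets rose (1.29 ± 0.30, adjusted p = 0.0195, list median 0.36), and with ADEP + OVA none did (median 0.30). Of all genes, 1.74% were called higher with NDEP + OVA and 0.629% with ADEP + OVA. The medians over all genes were 0.02 and 0.03, and in each comparison 19 of 21 targets had a positive difference. Iigp1 was 11.00, 10.82 and 9.87 after CDEP + OVA, 9.96, 8.88 and 9.08 after NDEP + OVA, 9.02, 9.27 and 8.47 after ADEP + OVA and 8.42, 7.59 and 8.04 after OVA. The NDEP + OVA and CDEP + OVA arrays overlapped. The direct comparison with CDEP + OVA called 10 of 21 targets higher against ADEP + OVA, where 0.815% of all genes were called higher. Against NDEP + OVA it called 1 of 21, Gbp6 (1.54 ± 0.21, adjusted p = 0.00160), and 0.00807% of all genes. Where 3.62% of all genes were called higher, in CDEP + OVA against OVA, 11 of 22 type I interferon targets rose, with a median of 0.58. Among them were Ifit1 (1.11 ± 0.18, adjusted p = 4.49e-04), Zbp1 (0.95 ± 0.16, 7.19e-04), Oas1a (1.02 ± 0.18, 8.59e-04) and Oas2 (0.69 ± 0.16, 0.00974). The count of type I targets was less stable, at 3 to 13 when an array was left out. It was 3 without the second OVA mouse and 4 without the first or the second CDEP + OVA mouse. With the heart muscle level as a covariate 2 of the 22 rose, and the share of all genes called in that fit was not counted. None of the 22 passed the CDEP interaction test, where 0.258% of all genes were called higher. Their median in that test was 0.50 beside 0.01 over all genes, and 20 of 22 were positive.

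Other cytotoxic genes were set beside Gzmb and the share of all genes. Of 12 measured genes of cytotoxic granules and killing, Gzmb alone passed in CDEP + OVA against OVA, where 3.62% of all genes were called higher. The list median was 0.20 beside -0.01 over all genes. Without the second CDEP + OVA mouse none of the 12 passed. Gzma, granzyme A, was 8.53, 8.56 and 7.64 after CDEP + OVA and 7.89, 7.74 and 7.32 after OVA, an overlapping difference of 0.59 ± 0.25 (adjusted p = 0.214). Prf1, which encodes perforin, differed by 0.32 ± 0.20 (adjusted p = 0.420), the granule protein gene Nkg7 by 0.19 ± 0.16 (0.557), Fasl by 0.24 ± 0.12 (0.325) and the cathepsin gene Ctsw by 0.23 ± 0.13 (0.351). Against ADEP + OVA, where Gzma was 6.59, 6.79 and 6.96, Gzma was higher by 1.46 ± 0.25 (adjusted p = 0.00556). It passed with Gzmb, where 0.815% of all genes were called higher. Gzma after ADEP + OVA differed from OVA by -0.87, which did not pass, whereas Gzmb differed by 0.14.

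Markers of T cells and NK cells, known to carry CXCR3 and granzyme B, gave these counts. Of 12 measured T cell markers none passed in CDEP + OVA against OVA (median -0.01), and Cd8a of cytotoxic T cells was low, with group means of 4.55 to 4.73 and a difference of -0.10 ± 0.12 (adjusted p = 0.708). Of 8 measured NK markers 2 rose, the interleukin 2 receptor chain Il2rb (0.43 ± 0.12, adjusted p = 0.0433) and the adaptor Tyrobp, also made by myeloid cells (0.57 ± 0.17, 0.0488), with a list median of 0.11, where 3.62% of all genes were called higher. The receptor genes Ncr1 (0.08 ± 0.16), Klrd1 (0.09 ± 0.15) and Klrk1 (0.13 ± 0.12) of the same list did not pass. The mean log2 level of the 8 NK markers ranged from 5.24 to 5.58 after CDEP + OVA and from 5.17 to 5.33 after OVA, which overlapped. The part of NK cell numbers in the Gzmb result was not tested.

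**Figure D4:**
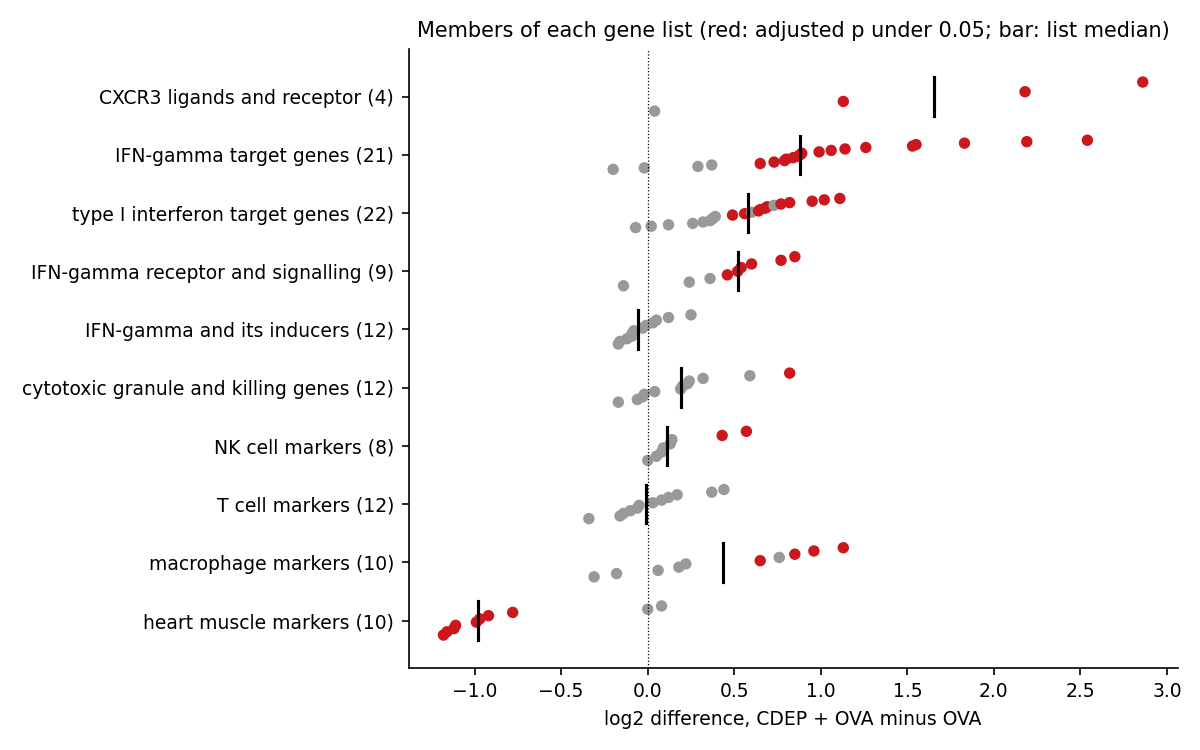
Log2 difference of CDEP + OVA from OVA (x axis) for every measured gene of 10 lists (rows, number of genes in brackets), where a point is a gene, red an adjusted p under 0.05 and the black bar the list median. Of the interferon gamma targets 17 of 21 are red and to the right of 0, of the cytotoxic genes 1 of 12, and of the heart muscle markers 8 of 10 are red and to the left. Of all genes 3.62% were called higher and 1.17% lower in this comparison.

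Other tissue and cell markers moved with the same contrast. Of 10 macrophage markers 4 rose in CDEP + OVA against OVA, namely Fcgr3, Itgax, Mrc1 and Cd68. In NDEP + OVA against the same OVA arrays 4 of 10 also rose. The shares of all genes called higher were 3.62% with CDEP + OVA and 1.74% with NDEP + OVA. The mean log2 level of the 10 markers was 7.46 to 7.62 after CDEP + OVA, 7.48 to 7.97 after NDEP + OVA and 6.95 to 7.20 after OVA. The highest macrophage level was thus in an NDEP + OVA lung. Of 11 neutrophil markers Cd177 and Clec4d rose. The same 2 also rose in NDEP + OVA and in ADEP + OVA against OVA, where 0.629% of all genes were called higher for ADEP + OVA. Of the 5 measured plasmacytoid dendritic cell markers Bst2, itself interferon inducible, rose and Cox6a2, also expressed in heart, fell. No marker of mast cells (11), endothelium (8) or lung epithelium (10) passed. Their part in the result was not tested.

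Heart muscle markers were lower after CDEP + OVA, 8 of 10 falling against OVA with a median of -0.98, where 1.17% of all genes were called lower. Their mean log2 level was 7.71 to 8.18 after CDEP + OVA and 8.68 to 8.92 after OVA, without overlap. Heart level and treatment therefore cannot be told apart in this comparison. With that level as a covariate the difference from OVA was 2.73 in Cxcl9 (adjusted p = 0.00119), 2.23 in Cxcl10 (0.00245) and 1.03 in Gzmb (0.0119), while fewer interferon genes passed, as given above. The share of all genes called with this covariate was not counted, so that drop is not shown to be particular to interferon genes. The difference between 3' and 5' probe sets of Gapdh, a sign of RNA quality, was 0.19 to 0.58 after CDEP + OVA and 0.01 to 0.32 after OVA. With the Gapdh and Actb differences as covariates the values were 3.15 in Cxcl9, 2.50 in Cxcl10 and 1.06 in Gzmb, all past the threshold.

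Against CDEP alone these measures did not overlap. The heart muscle level was 8.34 to 8.69 after CDEP and 7.71 to 8.18 after CDEP + OVA, the Gapdh difference 0.00 to 0.12 and 0.19 to 0.58, and the Actb difference 0.64 to 0.69 and 0.85 to 1.23. With the heart covariate the rise over CDEP was 2.94 in Cxcl9, 1.89 in Cxcl10 and 0.81 in Gzmb, and with the RNA quality covariates 3.54, 2.42 and 1.06, all past the threshold. The Cxcl9 interaction was 2.83 with the heart covariate (adjusted p = 0.00558) and 3.67 with the RNA quality covariates (0.00976). Because these measures do not overlap between CDEP and CDEP + OVA, such fits cannot tell them apart from the treatment.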

How the data were processed

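RNA from 24 mouse lungs was labelled with biotin, starting from 2 ug, for 1-colour Affymetrix arrays, per the labels' protocols. The authors deposited 1 intensity per probe set and array after RMA normalization between arrays, per the submitters' processing notes, with version and settings not given in the sources used here. These intensities ran from 5.98 to 18195.5 on a linear scale, so log2 was taken. RMA shrinks the differences of dim probes.

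Among 22690 probe sets were 64 Affymetrix controls. The platform annotation named 1 gene for 20380 of the rest, several for 691 and none for 1555. The brightest probe set of each symbol gave 12393 genes. limma 3.58.1 in R 4.3.3 fitted 8 group means to the 24 arrays (16 residual and 8.16 prior degrees of freedom), with two-sided moderated tests in 19 comparisons at an adjusted p of 0.05. The scripts were tested on simulated data. No pair of arrays was a copy (highest r 0.996). Groups come from the sample titles. Deviations from the group means had r of -0.32 to 0.35 (median 0.03) in 84 pairs of same-numbered arrays of different groups, 27 of them over 0.1. In 168 pairs of differently numbered arrays r was -0.36 to 0.35 (median -0.01), with 41 over 0.1. Python 3.11.15, numpy 2.4.6, pandas 2.3.3 and matplotlib 3.10.9 were also used.

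Of 185 genes in 15 lists, 165 were matched to the array by symbol or identifier, and the others were not analysed here. The members, lists, tests and rules were chosen with earlier results of these data known. Named genes are the 3 members, fixed partners in the pathway, up to 4 genes of smallest p per list and the 5 of highest r with each member. Others, such as the remaining interferon gamma targets, were named after their values were seen. Promoter sequences are from RefSeq. The number of arrays limits the precision.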

Additional observations from a re-analysis of the deposited data

Results flagged for a closer look

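The effect of OVA on Cxcl9 differed between CDEP-exposed and saline-dosed lungs by 2.87 ± 0.46 on the log2 scale (95% interval 1.91 to 3.82, adjusted p = 0.00325 by the interaction term in limma). OVA raised the group mean from 4.72 to 7.74 in CDEP lungs and gave 4.88 against 4.73 in saline-dosed lungs. All 3 CDEP + OVA arrays lay above all CDEP arrays, as they did for 13.5% of all genes, while the OVA and saline arrays overlapped. The heart muscle level and the 3' to 5' differences of Gapdh and Actb also separated the CDEP + OVA arrays from the CDEP arrays. With them as covariates the interaction was 2.83 (heart) and 3.67 (RNA quality), past the threshold in both fits. As these measures do not overlap between the groups, the fits cannot tell them apart from the treatment.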

How the results depend on the processing

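All calls in the 3 genes for CDEP + OVA against OVA and against CDEP, and the Cxcl9 interaction, were kept under some planned settings. They kept their side of the threshold under all settings that left out no array of the compared groups. These were the replicate number as a block, covariates for heart level or RNA quality, a fit of the compared groups only, a variance with trend and robust shrinkage, weights for arrays, a repeated quantile normalization, a dim filter (10387 genes left) and all probe sets. Of 513 values of the 3 genes under such settings, 468 kept direction and side of the threshold, 4 lost it, 14 gained it and 27, all of differences that did not pass, changed sign. The cause of these changes was not tested.

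With the replicate number as a block, no call of the 3 genes changed, and Cxcl9 in CDEP + OVA against OVA stayed at 2.86 (adjusted p = 1.14e-05). For CDEP + OVA against ADEP + OVA, calls were lost with only the compared groups in the fit (Cxcl9 2.19, Cxcl10 1.38, Gzmb 0.68) and, for Gzmb, with all probe sets (0.68, adjusted p = 0.0504). For CDEP + OVA against NDEP + OVA, all 3 genes passed with array weights (1.83, 1.61 and 0.84) and with RNA quality covariates (1.67, 1.43 and 0.79). The Cxcl10 interaction of CDEP passed with array weights (2.08), RNA quality covariates (2.61) and all probe sets (1.76, adjusted p = 0.0468). Cxcl9 in NDEP + OVA against OVA passed with the dim filter, array weights and only the compared groups (1.21 in each) and with RNA quality covariates (1.49). Cxcl10 in ADEP + OVA against OVA passed with array weights (0.97).

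Sign changes with RNA quality covariates were, against saline, -0.06 (Cxcl9) and -0.15 (Gzmb) for NDEP, -0.11 (Cxcl10) and -0.05 (Gzmb) for CDEP, and -0.13, -0.19 and -0.05 (Cxcl9, Cxcl10 and Gzmb) for OVA. With the same covariates the Gzmb interaction was 0.42 for NDEP and 0.13 for ADEP. CDEP against ADEP gave -0.34, -0.30 and -0.07, NDEP against ADEP -0.01 in Cxcl10, and NDEP + OVA against ADEP + OVA 0.24 in Cxcl10 and 0.11 in Gzmb. Array weights gave Cxcl9 0.01 for ADEP against saline and -0.03 for CDEP against ADEP, Cxcl10 -0.08 for OVA against saline, and Gzmb 0.00 for NDEP against saline and interactions of 0.07 for NDEP and 0.06 for ADEP. Quantile normalization again gave Cxcl9 0.01 for ADEP and 0.00 for CDEP against saline, and -0.01 for CDEP against ADEP. The heart covariate gave Gzmb 0.09 for the ADEP interaction and 0.07 for NDEP against ADEP, and Cxcl9 -0.08 for CDEP against ADEP.

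Leaving out each array in turn kept 350 of 396 values on their side and in their direction, while 11 lost a call, 6 gained one and 29 that did not pass changed sign. Among the calls, Gzmb ranged from 0.56 to 0.97 for CDEP + OVA against OVA, from 0.41 to 0.82 against CDEP and from 0.42 to 0.83 against ADEP + OVA, and Cxcl10 against ADEP + OVA from 1.02 to 1.90. The Cxcl10 interaction of CDEP ranged from 1.39 to 2.27. CDEP + OVA against NDEP + OVA ranged from 1.22 to 2.28 in Cxcl9, 1.05 to 1.93 in Cxcl10 and 0.50 to 0.91 in Gzmb. Cxcl9 in NDEP + OVA against OVA ranged from 0.91 to 1.46. Ranges that crossed 0 were, for Cxcl9, -0.06 to 0.05 (ADEP against saline), -0.11 to 0.06 (CDEP against saline) and -0.09 to 0.07 (CDEP against ADEP). For Cxcl10 they were -0.06 to 0.16 (CDEP against ADEP), -0.24 to 0.22 (NDEP + OVA against ADEP + OVA) and -0.09 to 0.25 (OVA against saline). For Gzmb they were -0.13 to 0.22 (NDEP), -0.09 to 0.27 (ADEP) and -0.08 to 0.27 (OVA) against saline, -0.01 to 0.13 (NDEP + OVA against OVA), -0.16 to 0.19 (NDEP interaction), -0.12 to 0.23 (ADEP interaction), -0.12 to 0.01 (NDEP against ADEP) and -0.15 to 0.01 (NDEP + OVA against ADEP + OVA).

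Counts in the gene lists with arrays left out and with covariates were added after seeing the data. With RNA quality covariates 18 of 21 interferon gamma targets, 10 of 22 type I targets, 2 of 12 cytotoxic genes and 5 of 9 signalling genes rose in CDEP + OVA against OVA. Without the third CDEP + OVA mouse 2 of 12 cytotoxic genes rose. The shares of all genes called in these fits were not counted. None of the 3 genes had a further probe set, and Cxcl9 in the groups without particle and OVA together is close to the level where signal and background are not told apart.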
